A study of Mus musculus with 6 samples.

Results

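The transcripts examined here are those of 10 regulators of the G1 phase, a set that decides whether a myoblast enters another cell cycle or leaves it. They were chosen by name, as *Cdkn1a*, *Cdkn1b*, *Cdkn1c*, *Cdkn2c*, *Ccnd1*, *Ccnd2*, *Ccnd3*, *Cdk4*, *Cdk6* and *Rb1*, and all 10 were found among the 20654 genes of the count table. The RB protein encoded by *Rb1* holds E2F transcription factors in check, and D-type cyclins with their kinases CDK4 and CDK6 phosphorylate RB and so release them. Inhibitors of the INK4 family bind CDK4 and CDK6, whereas those of the Cip/Kip family bind complexes of cyclins and kinases more broadly. In skeletal muscle, p21, cyclin D3 and RB are known for their roles in the exit of differentiating myoblasts from the cell cycle.

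MuSCs, the stem cells of skeletal muscle, were sorted from C57BL/6 mice and kept in growth medium for 3 d, and their RNA was sequenced as 3 libraries labelled wild type and 3 labelled *Piezo1* cKO. *Piezo1* encodes a mechanosensitive ion channel, and the question of the comparison is which transcripts differ when it is deleted. According to the study, the cKO mice carried floxed *Piezo1* together with *Pax7*CreERT2/+, which places a tamoxifen-inducible Cre under *Pax7* control in MuSCs, and the control mice carried *Pax7*CreERT2/+. The sample labels call the controls wild type. Mice received tamoxifen, and 1 µM 4-hydroxytamoxifen was added to the medium of both groups. The labels number the libraries without naming animals, so that p-values measure the spread between these libraries. Each library was made from 500 pg of RNA, in which cDNA molecules were marked with unique molecular identifiers, so that a count stands for a molecule. Depth was 740936, 931168 and 891531 counts in wild type and 810096, 726378 and 769295 counts in *Piezo1* cKO. At these depths 3 counts, used as the floor, correspond to between 3.35 CPM, in wild type library 2, and 4.31 CPM, in wild type library 1. CPM are counts scaled to a common library total, normalised by the TMM method throughout.

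*Piezo1* itself was read first. Counts of 11, 5 and 6 were found in wild type and of 7, 12 and 9 under the *Piezo1* cKO label. The corresponding levels were 9.49 ± 5.53 CPM (SD, n = 3) and 12.2 ± 3.50 CPM (SD, n = 3), and the groups overlapped. Its counts were thus no lower in the libraries labelled as lacking it. The study measured *Piezo1* separately by RT-qPCR, which was not analysed here. Whether the reads fall within the deleted part of the gene was not tested, since the table holds 1 value per gene, so the groups are named below by their labels, and those with the *Piezo1* cKO label are called cKO-labelled libraries. *Myod1*, the myogenic determination factor, was the most abundant of 11 MuSC and myoblast markers, at 1459 ± 102 CPM (SD, n = 3) in wild type and 1310 ± 205 CPM (SD, n = 3) in the cKO-labelled libraries.

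Of the 10 regulators, 9 passed the filter on low counts and were tested among 8551 genes, and *Cdkn1b* did not. None of the 9 was called by edgeR's quasi-likelihood test at an adjusted p under 0.05, the threshold used throughout, where 67 genes or 0.784% of those tested were called, 40 higher (0.468%) and 27 lower (0.316%) in the cKO-labelled libraries. DESeq2, which gave 7 of the 10 an adjusted p, also called none of them, against 0.674% of the 4007 genes to which it gave an adjusted p. At an unadjusted p under 0.05, 4 of the 9 passed, 2 higher and 2 lower, against 11.9% of all genes tested. In 1 of the 9, *Ccnd3*, every cKO-labelled library lay above every wild type library, against 8.2% of all genes. In 2 of the 9, *Cdk4* and *Cdkn2c*, every one lay below, against 8.31% of all genes. The median log2 fold change of the 9 was 0.06, beside 0.0021 over all genes tested. In bulk RNA, fewer cells of a type and less RNA per cell cannot be told apart.

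Upstream sequences are shown for the 3 regulators whose groups did not overlap, as examples of the regulatory sequence of the set, although none of these genes was called. RefSeq windows of 300 bases on GRCm38.p6, from 250 bases before to 50 after a transcription start, were matched by symbol for 6 of the 10 genes. The capitals mark matches on either strand to the E-box CACGTG, bound by MYC and related factors, or to the GC box GGGCGG, bound by SP1, which reads CCGCCC on the other strand. *Ccnd3* is read from chr17:47504801-47505100 on the plus strand, *Cdk4* from chr10:127063285-127063584 on the plus strand, and *Cdkn2c* from chr4:109666707-109667006 on the minus strand.
Ccnd3: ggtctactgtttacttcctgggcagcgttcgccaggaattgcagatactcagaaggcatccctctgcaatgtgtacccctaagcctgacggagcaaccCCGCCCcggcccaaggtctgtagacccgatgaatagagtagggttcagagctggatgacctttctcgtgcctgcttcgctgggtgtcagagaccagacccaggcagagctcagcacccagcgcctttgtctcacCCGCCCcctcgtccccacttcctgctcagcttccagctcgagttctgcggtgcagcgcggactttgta
Cdk4: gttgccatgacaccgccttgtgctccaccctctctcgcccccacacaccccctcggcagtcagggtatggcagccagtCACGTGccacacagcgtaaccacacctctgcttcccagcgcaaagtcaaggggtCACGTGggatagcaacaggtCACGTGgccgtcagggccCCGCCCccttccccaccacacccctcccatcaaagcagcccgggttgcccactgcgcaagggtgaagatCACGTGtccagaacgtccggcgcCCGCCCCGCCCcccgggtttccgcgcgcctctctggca
Cdkn2c: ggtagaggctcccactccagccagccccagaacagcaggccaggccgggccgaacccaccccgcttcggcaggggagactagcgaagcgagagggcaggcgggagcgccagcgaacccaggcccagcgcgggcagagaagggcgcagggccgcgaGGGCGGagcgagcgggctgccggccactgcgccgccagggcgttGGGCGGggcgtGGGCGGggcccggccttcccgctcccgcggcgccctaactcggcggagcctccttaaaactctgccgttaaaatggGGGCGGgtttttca
The *Cdk4* window held 4 matches to CACGTG and 3 to GGGCGG, and the last 2 of the latter share 1 base. The *Ccnd3* window held 2 matches to GGGCGG and the *Cdkn2c* window 4. At least 1 CACGTG occurs in 7.15% and at least 1 GGGCGG in 35.7% of 32851 RefSeq promoter windows, and 4 or more CACGTG occur in 8 of these windows (0.0244%). The cut-off of 4 is the number found in the *Cdk4* window, so this share is not an independent background for it. The E2F motifs TTTCCCGC and TTTGGCGC, found in 1.07% and 0.514% of all windows, had no match in the windows of these 6 genes, which says only that these letters are not in them. The E-box CAGCTG, bound by myogenic factors and found in 16.3% of all windows, and the AP-1 motif TGACTCA, found in 5.20%, were searched as well and had no match in the 3 windows shown. *Ccnd3* and *Cdkn2c* have 2 windows each in the table, of which the one nearer the start of the annotated gene is shown. A match is a description of letters and not a binding site, and it was set against no binding data.

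Among the Cip/Kip inhibitors, *Cdkn1a* was the most abundant and did not differ beyond the spread between libraries. *Cdkn1a*, on chromosome 17 from 29090976 to 29100727 on the plus strand of GRCm38, encodes p21, which is induced by p53 and by MyoD. Its levels were 795, 659 and 848 CPM in wild type and 781, 596 and 719 CPM in the cKO-labelled libraries. The lowest library of both groups was number 2, and the groups overlapped. Mean levels were 767 ± 97.3 and 699 ± 94.3 CPM (SD, n = 3 each), and the log2 fold change was -0.13 (SE 0.14, edgeR adjusted p = 0.775). The sign of this value is not stable, since after cyclic loess normalisation it was 0.05 (edgeR adjusted p = 0.923).

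The other Cip/Kip inhibitors were close to the floor. *Cdkn1b*, which encodes p27, an inhibitor kept high in quiescent cells, lies on chromosome 6 from 134920401 to 134925513 on the plus strand. It had 8, 6 and 6 counts in wild type and 5, 19 and 9 in the cKO-labelled libraries, and only library 2 of the latter stood apart. Its levels were 8.43 ± 2.67 and 14.5 ± 9.63 CPM (SD, n = 3 each). Without the filter on low counts its log2 fold change was 0.78 (SE 0.46, edgeR adjusted p = 0.725).

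*Cdkn1c* encodes p57, an imprinted inhibitor, and lies on chromosome 7 from 143458339 to 143461050 on the minus strand. It had 10, 9 and 13 counts in wild type and 8, 19 and 9 in the cKO-labelled libraries. As for *Cdkn1b*, the highest library was number 2 of the *Piezo1* cKO group and the others overlapped. Antisense transcripts are annotated over exons of *Cdkn1c* (*Gm44732*, 625 bases) and *Ccnd2* (*Gm43126*, 372 bases) and were not analysed here. The log2 fold change of *Cdkn1c*, 0.25 (SE 0.40, edgeR adjusted p = 0.873), turned to -0.25 (edgeR adjusted p = 0.942) without that library. Summed over *Cdkn1a*, *Cdkn1b* and *Cdkn1c*, the Cip/Kip transcripts amounted to 789 ± 101 CPM in wild type and 729 ± 76.7 CPM in the cKO-labelled libraries (SD, n = 3 each), a difference within the spread.

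**Figure D1:**
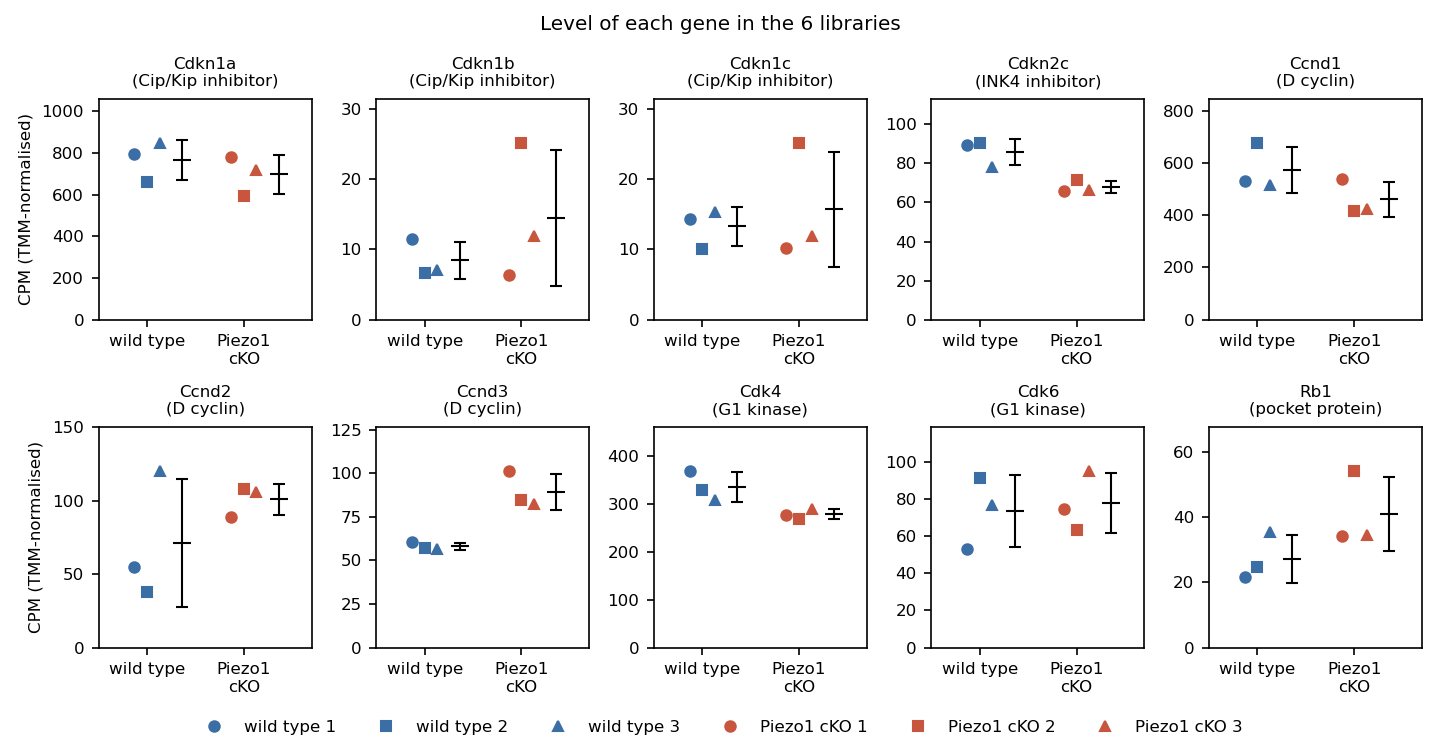
Level of each of the 10 G1 regulators, 1 panel per gene, in TMM-normalised CPM on linear axes that start at 0. Points are the 6 libraries and black bars the mean ± SD of 3 libraries. The groups do not overlap for *Ccnd3*, *Cdk4* and *Cdkn2c*, and wild type library 3 stands above the other wild type libraries for *Ccnd2*.

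*Cdkn2c*, the INK4 inhibitor of the set, encodes p18 and lies on chromosome 4 from 109660876 to 109667189 on the minus strand. Its levels were 89.2, 90.3 and 77.9 CPM in wild type and 65.9, 71.3 and 66.3 CPM in the cKO-labelled libraries. All 3 of the latter were lower than the lowest wild type library. Means were 85.8 ± 6.85 and 67.8 ± 3.03 CPM (SD, n = 3 each), and the log2 fold change of -0.34 (SE 0.19) did not pass the test (edgeR unadjusted p = 0.0725, adjusted p = 0.468). Over all alternatives its log2 fold change stayed between -0.40 and -0.26.

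The D cyclins bring the signals of growth factors and adhesion to CDK4 and CDK6, and none of the 3 genes was called. *Ccnd1*, on chromosome 7 from 144929931 to 144939925 on the minus strand, encodes cyclin D1, the mitogen-responsive member. Its levels were 531, 676 and 516 CPM in wild type and 539, 417 and 425 CPM in the cKO-labelled libraries. Libraries 2 and 3 of the latter were lower than every wild type library, whereas library 1 lay within the wild type range. The log2 fold change was -0.32 (SE 0.14, edgeR unadjusted p = 0.0231, adjusted p = 0.317), from 574 ± 88.4 to 460 ± 67.9 CPM (SD, n = 3 each). It was -0.18 both without wild type library 2 (edgeR adjusted p = 0.763) and after cyclic loess normalisation (edgeR adjusted p = 0.626). *LTO1* shares 1100 exonic bases with *Ccnd1* on the opposite strand, and its log2 fold change was 0.02 (SE 0.33, edgeR adjusted p = 0.987).

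*Ccnd3* encodes cyclin D3, the D cyclin known to accumulate in differentiating myoblasts, and lies on chromosome 17 from 47505051 to 47599691 on the plus strand. Its levels were 60.4, 56.9 and 56.7 CPM in wild type and 101, 84.5 and 82.2 CPM in the cKO-labelled libraries. The wild type libraries lay close together, and all 3 cKO-labelled libraries were above them. Means were 58.0 ± 2.09 and 89.4 ± 10.5 CPM (SD, n = 3 each), a ratio of 1.54 from the fit. The log2 fold change of 0.63 (SE 0.19) had an unadjusted p of 0.00144 and, adjusted over all genes by edgeR, a p of 0.0996. It therefore missed the threshold, and over the alternatives its adjusted p ran from 0.0572 to 0.390. An antisense neighbour, *Bysl*, shares 361 exonic bases with *Ccnd3* on the opposite strand, and the strand setting of the counting is not given in the sources used here, so reads of the 2 genes cannot be told apart there. *Bysl* had a log2 fold change of -0.08 (SE 0.16, edgeR adjusted p = 0.898). A processed pseudogene, *Ccnd3-ps*, is also annotated, and how reads matching both places were counted is not given either.

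*Ccnd2*, which encodes cyclin D2, lies on chromosome 6 from 127125162 to 127152193 on the minus strand and was the most variable of the 9 tested regulators, with a range of 1.60 in log2 CPM over the 6 libraries. Its levels were 54.6, 37.9 and 120 CPM in wild type and 88.7, 108 and 106 CPM in the cKO-labelled libraries. Wild type library 3 was the highest of all 6 and the other wild type libraries were the lowest. Its log2 fold change of 0.50 (SE 0.44) did not pass the test (edgeR adjusted p = 0.739). Without wild type library 3 it was 1.15 (edgeR adjusted p = 0.00136), the only call of any of the regulators under any setting, where 1.48% of 8834 genes were called. Without wild type library 2 it was 0.18 (edgeR adjusted p = 0.845) and without wild type library 1 it was 0.36 (edgeR adjusted p = 0.861).

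Wild type library 3 also held more *Acta2*, a smooth muscle actin gene that myoblasts in culture can express. *Acta2* reached 196, 73.6 and 435 CPM in wild type and 347, 499 and 333 CPM in the cKO-labelled libraries. It was the most abundant, in CPM, of the 5 measured of 6 pericyte and smooth muscle markers, whose summed level was 240, 105 and 477 CPM in wild type and 402, 557 and 416 CPM in the cKO-labelled libraries. *Cspg4*, the other tested marker of this list, had 28, 25 and 25 counts in wild type and 39, 32 and 54 in the cKO-labelled libraries, without overlap (log2 fold change 0.76, SE 0.25, edgeR adjusted p = 0.143). *Rgs5* had 0, 0 and 1 against 2, 4 and 6 counts, also higher in all 3, *Pdgfrb* 3, 3 and 10 against 2, 7 and 3, and *Myh11* 1 count in a single library. None of the list was called. Their part in the *Ccnd2* values was not tested. The 5 tested genes whose levels followed those of *Ccnd2* most closely, by the root mean square difference of centred log2 CPM over the 6 libraries, were *Foxj2* (0.16), *Snrpert* (0.17), *Ndufb2* (0.17), *Bgn* (0.17) and *Sgca* (0.18), where the median over all tested genes was 0.62. None of these 5 was called. They were picked from all tested genes as the closest to *Ccnd2*, itself not called. Neither their small differences nor the lack of calls is therefore read as a result. *Foxj2* and *Snrpert* were low, at 7.81 to 23.8 CPM and 10.0 to 26.5 CPM.

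The mixture of D cyclin transcripts was described by the share of each in their summed counts, which were 449, 691 and 587 in wild type and 575, 462 and 463 in the cKO-labelled libraries. *Ccnd3* made up 9.35%, 7.38% and 8.18% in wild type and 13.9%, 13.9% and 13.4% in the cKO-labelled libraries. These groups did not overlap, with means of 8.30% ± 0.993 and 13.7% ± 0.286 (SD, n = 3 each), although the 95% Wilson intervals of single libraries met, from 6.99% to 12.4% in wild type library 1 and from 10.6% to 16.8% in cKO-labelled library 3. *Ccnd1* made up 82.2%, 87.7% and 74.4% in wild type and 73.9%, 68.4% and 69.3% in the cKO-labelled libraries, a difference in means of -10.9 percentage points. Its groups did not overlap either, but wild type library 3 and cKO-labelled library 1 lay within 1 percentage point of each other. *Ccnd2* made up 8.46%, 4.92% and 17.4% in wild type and 12.2%, 17.7% and 17.3% in the cKO-labelled libraries, and its groups overlapped. These shares are given as a description, without a test and without regard to transcript length, and intervals cover counting error only. Summed over the 3 genes, D cyclin transcripts stood at 703 ± 63.1 CPM in wild type and 651 ± 67.6 CPM in the cKO-labelled libraries (SD, n = 3 each), which is within the spread.

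**Figure D2:**
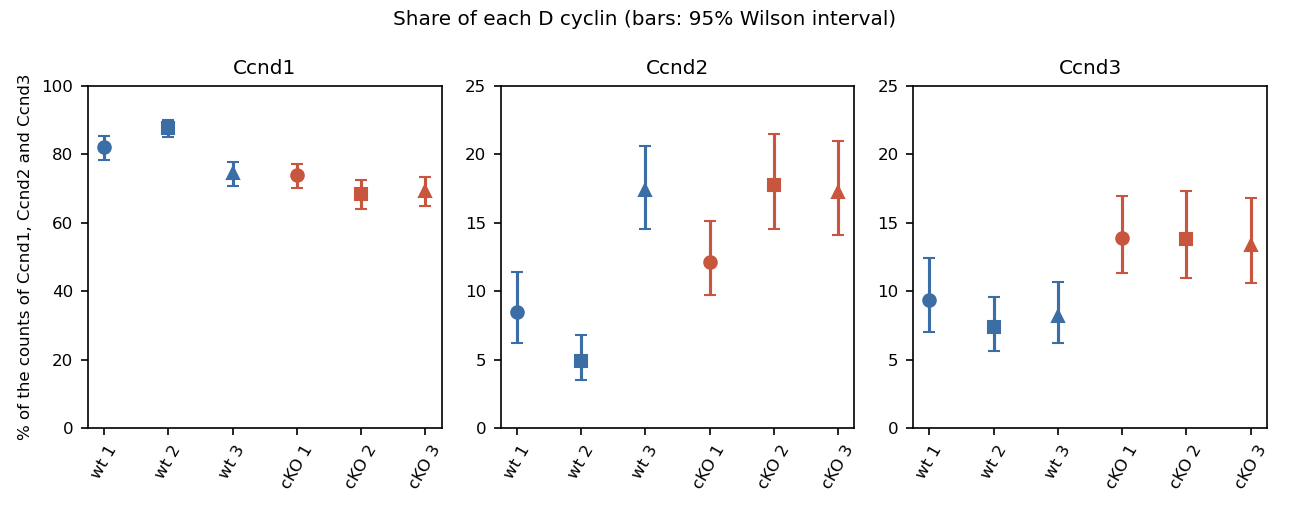
Share of *Ccnd1*, *Ccnd2* and *Ccnd3* in their summed counts, in percent, for each library, with 95% Wilson intervals as bars. The y axis of the first panel runs to 100% and those of the others to 25%. The *Ccnd3* shares of the 3 cKO-labelled libraries, from 13.4% to 13.9%, lie above the 3 wild type shares, from 7.38% to 9.35%.

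Neither of the kinases that pair with D cyclins was called. *Cdk4* lies on chromosome 10 from 127063534 to 127067920 on the plus strand. Its levels were 370, 330 and 308 CPM in wild type and 276, 269 and 290 CPM in the cKO-labelled libraries. All 3 of the latter were below the lowest wild type library. Means were 336 ± 31.1 and 279 ± 10.6 CPM (SD, n = 3 each), with a log2 fold change of -0.27 (SE 0.13, edgeR unadjusted p = 0.0489, adjusted p = 0.416), which became -0.17 after cyclic loess normalisation (edgeR adjusted p = 0.655). *Tspan31* shares 641 exonic bases with *Cdk4* on the opposite strand, and its log2 fold change was 0.21 (SE 0.39, edgeR adjusted p = 0.898).

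*Cdk6*, on chromosome 5 from 3341485 to 3531008 on the plus strand, was at 53.2, 91.5 and 76.8 CPM in wild type and 74.8, 63.4 and 95.4 CPM in the cKO-labelled libraries. The groups overlapped over most of their range. The log2 fold change was 0.06 (SE 0.19, edgeR adjusted p = 0.948), and its sign turned to -0.11 without wild type library 1 (edgeR adjusted p = 0.888) and without cKO-labelled library 3 (edgeR adjusted p = 0.940). The summed level of both kinases was 410 ± 21.5 CPM in wild type and 357 ± 26.8 CPM in the cKO-labelled libraries (SD, n = 3 each).

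*Rb1*, the pocket protein gene of the set, lies on the minus strand of chromosome 14 from 73183673 to 73325822. It had counts of 15, 22 and 30 in wild type and 27, 41 and 26 in the cKO-labelled libraries. These correspond to 21.6, 24.5 and 35.4 CPM and to 34.2, 54.1 and 34.5 CPM. The cKO-labelled library 2 was the highest, and wild type library 3 reached above the lower cKO-labelled libraries. Its log2 fold change of 0.57 (SE 0.27, edgeR unadjusted p = 0.0363, adjusted p = 0.378) did not pass the test, and it was 0.32 without cKO-labelled library 2 (edgeR adjusted p = 0.860). *Rcbtb2* and *Lpar6* share 488 and 408 exonic bases with *Rb1* on the opposite strand, and neither was called, with log2 fold changes of -0.12 (edgeR adjusted p = 0.859) and 0.41 (edgeR adjusted p = 0.760). The other pocket protein genes were named after their values were seen. *Rbl1*, which encodes p107, had 18, 21 and 21 counts in wild type and 18, 17 and 10 in the cKO-labelled libraries (log2 fold change -0.33, edgeR adjusted p = 0.739). *Rbl2*, which encodes p130, had 0 to 5 counts per library and was not tested.

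**Figure D3:**
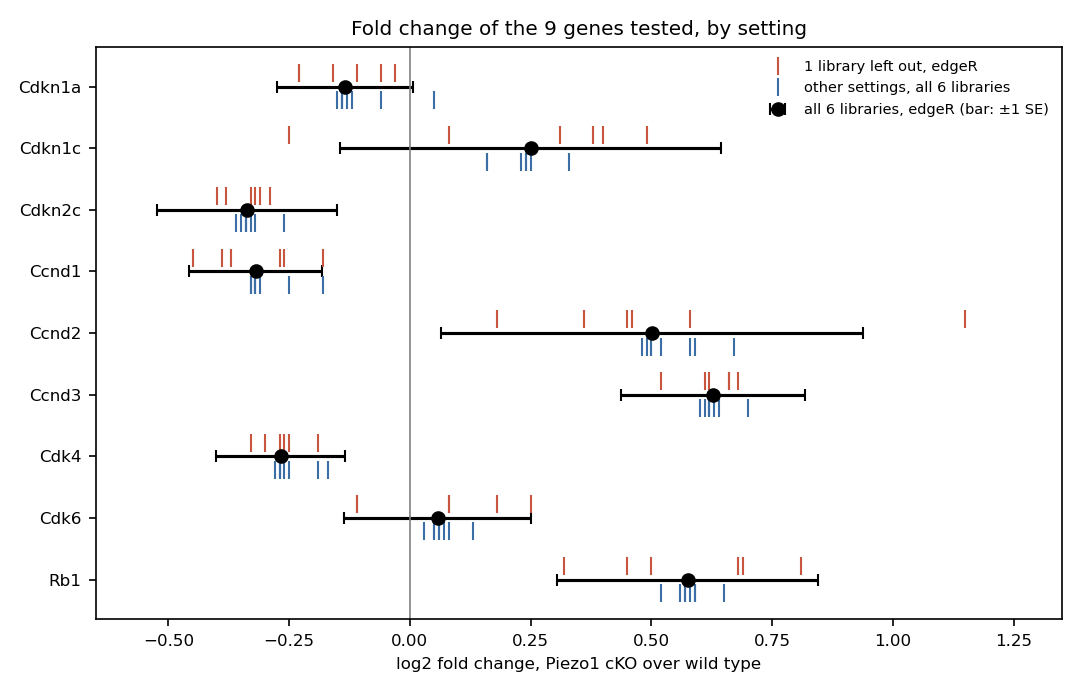
Log2 fold change, *Piezo1* cKO over wild type, of the 9 tested regulators. Black points and bars give the fit to all 6 libraries ± 1 SE, orange ticks the fits without 1 library, and blue ticks the other settings. The values of *Ccnd3* stay between 0.52 and 0.70, those of *Ccnd2* reach 1.15 without wild type library 3, and 0.18 without wild type library 2, and those of *Cdkn1a*, *Cdkn1c* and *Cdk6* cross 0.

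The levels of the 10 regulators were set in order after division by exon length in kilobases, with the limit that priming from the poly(A) tail gives counts that need not scale with length. In wild type, *Cdkn1a* was the highest at 216 ± 27.4 CPM per kb (SD, n = 3), followed by *Ccnd1* at 122 ± 18.8, *Cdk4* at 103 ± 9.58 and *Cdkn2c* at 31.9 ± 2.55. *Ccnd1* and *Cdk4* overlapped between libraries, whereas *Cdkn1a* and *Cdkn2c* did not overlap their neighbours in this order. *Ccnd2*, *Ccnd3*, *Cdkn1c*, *Cdk6* and *Rb1* lay between 7.55 and 4.52 CPM per kb, each overlapping the next, and *Cdkn1b* was the lowest at 1.85 ± 0.587. In the cKO-labelled libraries the order was the same except that *Rb1*, at 6.81 ± 1.90 CPM per kb, stood before *Cdk6*, at 5.57 ± 1.16.

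Around these regulators, 39 other genes of G1/S control were listed, of which 31 were tested. None was called by edgeR or by DESeq2, which gave 18 of them an adjusted p, and 4 had an unadjusted p under 0.05 (2 higher and 2 lower), against 11.9% of all genes. Of the 31, 9 had a log2 fold change above 0 and 22 below, and the median was -0.14, which became -0.09 without wild type library 2 and -0.07 with scaling by total counts only. The highest log2 fold change was that of *Cdkn2b*, which encodes the INK4 inhibitor p15 and is known as a target of TGF-β. Its counts were 41, 29 and 37 in wild type and 50, 70 and 54 in the cKO-labelled libraries, without overlap. Its log2 fold change was 0.77 (SE 0.22, edgeR adjusted p = 0.0642), from 45.0 ± 13.4 to 75.8 ± 15.0 CPM (SD, n = 3 each). *Cdkn2b* was called with scaling by total counts only (edgeR adjusted p = 0.0491), among genes with at least 10 counts in every library (0.0355), and without wild type library 1 (0.0174) or cKO-labelled library 1 (0.0140). *Tfdp2*, a dimerisation partner of E2F, followed at 0.50 (edgeR adjusted p = 0.376) and *Mnat1*, a subunit of the CDK-activating kinase, at 0.32 (edgeR adjusted p = 0.428). At the other end were *Ccne2*, which encodes cyclin E2, at -0.78 (edgeR adjusted p = 0.273), *Lin9*, a subunit of the MuvB complex, at -0.57 (edgeR adjusted p = 0.510), and *Fzr1*, an activator of the anaphase-promoting complex, at -0.46 (edgeR adjusted p = 0.181). None of these 6 passed the test.

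E2F target and S-phase genes, whose transcription RB restrains, mostly had log2 fold changes below 0. Of 35 tested genes, 33 had a log2 fold change below 0 (4261 of all 8551 genes did) the median was -0.31, and 13 had an unadjusted p under 0.05, all with values below 0, against 11.9% of all genes in either direction. In 11 of the 35 every cKO-labelled library lay below every wild type library, against 8.31% of all genes. *Hells*, a chromatin remodeller of proliferating cells, fell by the adjusted test with all 6 libraries, against 0.316% of all genes called lower, and no other gene of the list was called. With 1 library left out the calls in this list ran from 0 to 4, given here with the calls over all genes tested in brackets. There were 0 without wild type library 2 (75 of all 8839 genes) or cKO-labelled libraries 2 (6 of 8812) or 3 (29 of 8921). There were 4 without cKO-labelled library 1 (174 of 8795), where *Mcm5* (edgeR adjusted p = 0.0134) and *Prim1* (0.0472) were added. *Tk1* was called without wild type library 3 (edgeR adjusted p = 0.0172), where 131 of all 8834 genes were called. *Hells* had 102, 140 and 97 counts in wild type and 76, 64 and 57 in the cKO-labelled libraries, which do not overlap. Its log2 fold change was -0.70 (SE 0.17, edgeR adjusted p = 0.0148), and the call was lost with DESeq2 (adjusted p = 0.129), with scaling by total counts only (edgeR adjusted p = 0.0565), with a block for the replicate (0.0582) and without wild type library 2 (0.0997) or cKO-labelled libraries 2 (0.202) or 3 (0.191). The lowest values besides *Hells* were those of *Cdc6*, a licensing factor of replication origins, at -0.89 (edgeR adjusted p = 0.0567), and *Pola1*, the catalytic subunit of DNA polymerase α, at -0.88 (edgeR adjusted p = 0.229). *Cdc6* was called under 6 alternatives, namely DESeq2 size factors (edgeR adjusted p = 0.0456), at least 10 counts in every library (0.0238), no filter (0.0107), and without wild type library 1 (0.0293), wild type library 3 (0.0109) or cKO-labelled library 1 (0.00180). The highest were *Pole*, the catalytic subunit of DNA polymerase ε, at 0.44 (edgeR adjusted p = 0.509), *Chaf1b*, a chromatin assembly subunit, at 0.05 (edgeR adjusted p = 0.955), and *Rpa1*, a single-strand DNA binding protein, at -0.07 (edgeR adjusted p = 0.908).

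G2/M genes were also more often below 0, in 27 of 31 tested against 4261 of all 8551 genes, with a median log2 fold change of -0.17. This median was -0.31 without cKO-labelled library 1, -0.11 without cKO-labelled library 2 and -0.10 with scaling by total counts only. *Prc1* and *Cenpf* fell and none rose, against 0.316% of all genes called lower, and 7 had an unadjusted p under 0.05, all below 0, against 11.9% of all genes in either direction. With 1 library left out the calls in this list ran from 0 to 3, again with the calls over all genes tested in brackets. There were 0 without wild type library 1 (105 of all 8976 genes) or cKO-labelled libraries 2 (6 of 8812) or 3 (29 of 8921). There were 3 without cKO-labelled library 1 (174 of 8795), where *Aurkb*, a mitotic kinase, was added (edgeR adjusted p = 0.0454). *Prc1*, which bundles the microtubules of the central spindle, had 37, 37 and 34 counts in wild type and 18, 14 and 12 in the cKO-labelled libraries. All 3 of the latter were well below the wild type libraries, and the log2 fold change was -1.21 (SE 0.28, edgeR adjusted p = 0.0114). The call was lost without wild type library 1 (edgeR adjusted p = 0.0568) and without cKO-labelled libraries 2 (0.178) or 3 (0.109), and DESeq2 gave it no adjusted p. *Cenpf*, a protein of the kinetochore, had 98, 128 and 113 counts in wild type and 78, 69 and 59 in the cKO-labelled libraries, which do not overlap in CPM. Its log2 fold change was -0.63 (SE 0.16, edgeR adjusted p = 0.0294), and the call was lost with DESeq2 (adjusted p = 0.178), with total counts only (edgeR adjusted p = 0.0861), after cyclic loess (0.0546), with a block for the replicate (0.101) and without wild type library 1 (0.0533) or 2 (0.0678) or cKO-labelled libraries 2 (0.209) or 3 (0.278). *Cenpe*, a kinetochore motor, was at -0.54 (edgeR adjusted p = 0.167), and the highest of the list were *Ccnf* at 0.14, *Bub1b* at 0.06 and *Kif23* at 0.03, with edgeR adjusted p-values from 0.826 to 0.965.

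Genes induced by p53, the activator of *Cdkn1a*, were listed together with *Trp53*, which encodes p53 itself, and *Mdm4*. Of this list 23 genes were tested and none was called by edgeR or by DESeq2, which gave 8 of them an adjusted p. An unadjusted p under 0.05 was found for 3, against 11.9% of all genes. The median log2 fold change was 0.19, with 16 above and 7 below 0, and it was 0.07 without wild type library 2 and also without cKO-labelled library 2. In 2 of the 23, *Pidd1* and *Gadd45a*, the cKO-labelled libraries were all higher, against 8.2% of all genes. *Pidd1*, which encodes a death domain protein, was at 0.71 (edgeR adjusted p = 0.178), *Gadd45a*, a growth arrest gene, at 0.69 (edgeR adjusted p = 0.142), and *Pmaip1*, which encodes NOXA, at 0.67 (edgeR adjusted p = 0.516). *Pmaip1* was called without wild type library 3 (log2 fold change 1.19, edgeR adjusted p = 0.0101), and *Gdf15*, a stress-induced cytokine named after its values were seen, without wild type library 1 (0.86, edgeR adjusted p = 0.00989). The lowest were *Plk2* at -0.38 (edgeR adjusted p = 0.187), the pro-apoptotic *Bax* at -0.23 (edgeR adjusted p = 0.528) and *Mdm4*, an inhibitor of p53, at -0.20 (edgeR adjusted p = 0.834).

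Of the signals known to act on these regulators, 21 genes were tested and none was called by edgeR or by DESeq2, which gave 15 of them an adjusted p, and 2 had an unadjusted p under 0.05, against 11.9% of all genes (median log2 fold change -0.07). With 1 library left out this median ran from -0.13, without cKO-labelled library 1, to -0.01, without cKO-labelled library 3, and with scaling by total counts only it was 0.00. *Myc*, which activates D cyclin and *Cdk4* transcription and represses *Cdkn1a*, was the lowest. It had 192, 334 and 253 counts in wild type and 194, 159 and 176 in the cKO-labelled libraries. In CPM these groups did not overlap, at 316 ± 50.4 and 230 ± 18.2 (SD, n = 3 each), and the log2 fold change was -0.46 (SE 0.14, edgeR adjusted p = 0.0917). Without cKO-labelled library 1 *Myc* was called (-0.52, edgeR adjusted p = 0.0414). *Yap1*, a transcriptional coactivator, was at -0.33 (edgeR adjusted p = 0.573) and *Smad2*, a transducer of TGF-β signals, at -0.31 (edgeR adjusted p = 0.497). The highest were *Foxo3*, an activator of *Cdkn1b*, at 0.62 (edgeR adjusted p = 0.534) and *Egr1*, an immediate early gene, at 0.55 (edgeR adjusted p = 0.159).

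Myocyte differentiation genes, which come on as myoblasts leave the cell cycle, were tested in 14 of 25 cases, and none was called. Their median log2 fold change was 1.58, but a gene can pass the filter through the cKO-labelled libraries alone, so no count over the tested genes is read from this list. Over the 8 genes with at least 10 counts in every library the median was 0.90, and over the 23 genes kept with no filter it was 2.00. *Mylpf*, a fast skeletal myosin light chain, had 18, 5 and 23 counts in wild type and 37, 191 and 61 in the cKO-labelled libraries. *Tnni1*, the slow skeletal troponin I, had 24, 2 and 17 against 43, 138 and 43 counts, and *Actc1*, the cardiac actin of developing muscle, 6, 0 and 0 against 11, 96 and 21. The cKO-labelled library 2 was the highest for all 3 genes, and wild type library 2 was the lowest or shared the lowest value. The log2 fold changes of *Mylpf* and *Tnni1* were 2.72 (SE 1.00, edgeR adjusted p = 0.415) and 2.44 (SE 0.95, edgeR adjusted p = 0.434). Calls in this list depended on the setting. DESeq2 called *Acta1*, the skeletal actin gene (2.00, adjusted p = 0.00485), where it called 27 of all 4007 genes. With no filter, edgeR called 6 of 23 genes, all higher, where it called 129 of all 19247 genes. With 1 library left out, the edgeR calls in this list ran from 0 to 4. The 0 was without wild type library 3 (131 of all 8834 genes called), and the 4 without cKO-labelled library 1 (174 of 8795). These fits used the same filter, so their counts carry the same limit and nothing is read from them. Among the 4 was *Myl1*, which did not pass the filter with all 6 libraries. It had 2, 0 and 2 counts in wild type and 5, 55 and 14 in the cKO-labelled libraries. *Chrng* (log2 fold change 1.11, edgeR adjusted p = 0.118) had 56, 27 and 42 counts in wild type and 92, 105 and 62 in the cKO-labelled libraries. It was called among genes with at least 10 counts in every library (edgeR adjusted p = 0.0297) and with no filter (7.9e-06). Leaving out wild type library 1 (7.7e-05) or 2 (0.0092), or cKO-labelled library 1 (0.0491) or 3 (0.00897), also gave a call. The lowest of the list were *Mef2a* at 0.45 (edgeR adjusted p = 0.187), *Tnnt2* at 0.16 (edgeR adjusted p = 0.703) and *Chrna1* at -0.19 (edgeR adjusted p = 0.678).

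The library means of the lists describe where each library stood. Relative to the mean of the 6 libraries, the E2F list stood at 0.10, 0.32 and 0.03 in wild type and at -0.01, -0.24 and -0.19 in the cKO-labelled libraries, in log2 CPM. The myocyte list stood at -0.11, -1.54 and -0.55 in wild type and at 0.26, 1.41 and 0.53 in the cKO-labelled libraries. Its means are over the 14 tested genes, which can pass the filter through the cKO-labelled libraries alone. They are therefore a description of the libraries, and no difference between the groups is read from them. Wild type library 2 had the highest E2F and the lowest myocyte mean, and cKO-labelled library 2 had the lowest E2F and the highest myocyte mean. *Ccnd1* was likewise highest in the first and lowest in the second of these libraries. The 2 means did not run in opposite order throughout. Wild type library 1 stood above wild type library 3 in both, whereas the cKO-labelled libraries stood in opposite order. Among the cKO-labelled libraries *Ccnd3* was highest in library 1, where the myocyte mean was the lowest of the 3. The part of the myocyte transcripts in the values of the regulators was not tested.

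**Figure D4:**
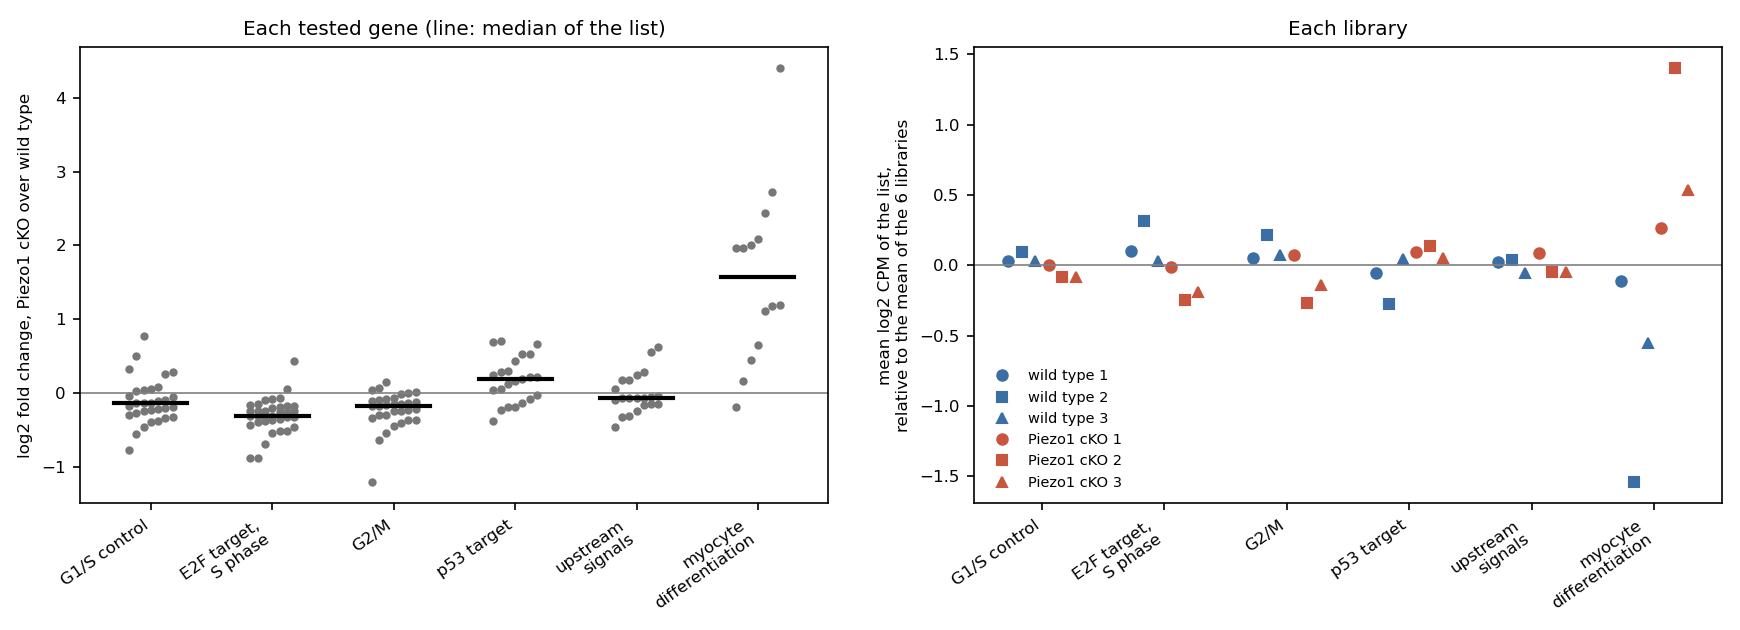
Left, log2 fold change, *Piezo1* cKO over wild type, of each tested gene of 6 lists, with the median of each list as a black line. Right, mean log2 CPM of each list in each library relative to the mean of the 6 libraries. The myocyte list spans from -1.54 in wild type library 2 to 1.41 in cKO-labelled library 2, and the other lists stay between -0.28 and 0.32. Genes of the myocyte list can pass the filter through the cKO-labelled libraries alone, so its span is a description and is not compared between groups or lists.

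The labelled cell type was checked against markers. The summed level of 11 MuSC and myoblast markers was 3574, 3389 and 3474 CPM in wild type and 3529, 2850 and 3294 CPM in the cKO-labelled libraries, and none of the 9 that were tested was called. *Pax7*, the transcription factor of MuSCs, had 10, 26 and 19 counts in wild type and 16, 5 and 12 in the cKO-labelled libraries (log2 fold change -0.64, edgeR adjusted p = 0.481). It was lowest in cKO-labelled library 2, the library with the highest myocyte mean. *Myf5* was at 0.28, *Cdh15* at 0.53, *Des* at 0.10, *Itga7* at 0.04, *Myod1* at -0.15, *Itgb1* at -0.19, *Vcam1*, the antigen used for sorting, at -0.45 and *Sdc4* at -0.53 on the log2 scale, with edgeR adjusted p-values from 0.0609 for *Sdc4* to 0.949 for *Itga7*. Although not called, *Vcam1*, *Sdc4* and *Itgb1* were lower in every cKO-labelled library than in every wild type library, against 8.31% of all genes. *Cdh15* was higher in every one, against 8.2% of all genes. *Chodl* and *Msc* had at most 3 counts in any library.

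Among markers of other cell types, *Acta2*, *Gsn*, *Col3a1*, *Scx* and *Cd34* were the most abundant in CPM. Of 9 fibro-adipogenic markers 8 were measured, and they summed to 482, 574 and 756 CPM in wild type and 546, 626 and 594 CPM in the cKO-labelled libraries. *Gsn* was the most abundant over all libraries, although its mean in the cKO-labelled libraries, 259 CPM, was below that of *Col3a1*, 262 CPM. The defining *Pdgfra* had 1 to 8 counts per library. Of the 4 markers of this list that were tested, only *Dcn* was called. It had 18, 23 and 37 counts in wild type and 8, 5 and 3 in the cKO-labelled libraries (log2 fold change -2.17, SE 0.38, edgeR adjusted p = 0.000387). *Ly6a*, which encodes Sca-1, an antigen the sort selected against, had 2, 2 and 3 counts in wild type and 5, 8 and 9 in the cKO-labelled libraries, all higher, and was not tested. *Col3a1*, a collagen gene, stood at 196 ± 66.2 CPM in wild type and 262 ± 20.8 CPM in the cKO-labelled libraries (SD, n = 3 each), with a log2 fold change of 0.41 (edgeR adjusted p = 0.265). *Cd34*, which quiescent MuSCs also express, had 53, 172 and 91 counts in wild type and 39, 23 and 35 in the cKO-labelled libraries, without overlap in CPM (log2 fold change -1.59, SE 0.40, edgeR adjusted p = 0.181). Of 7 endothelial markers 5 were measured, and they summed to between 8.27 and 21.2 CPM, with none tested. *Tek* was the most abundant over all libraries, but not in the wild type libraries alone. Of 9 immune markers 5 were measured, and they summed to between 26.6 and 46.8 CPM, with *Cd14* the most abundant and the only 1 tested. The 6 tenocyte and glial markers summed to between 153 and 244 CPM, mostly *Scx*. *Mkx*, of the same list, had 2, 10 and 3 counts in wild type and 11, 11 and 11 in the cKO-labelled libraries. It was higher in all 3 of the latter and not called (log2 fold change 1.21, SE 0.48, edgeR adjusted p = 0.256). The endothelial sums overlapped between groups. The immune sums did not, at 35.95, 46.85 and 37.78 CPM in wild type and 26.62, 35.66 and 30.48 CPM in the cKO-labelled libraries, and their part in the values of the regulators was not tested.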

How the data were processed

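RNA-seq of cultured MuSCs was analysed in 3 wild type and 3 *Piezo1* cKO libraries, grouped by the sample labels. The counts deposited by the authors are UMI counts per gene without normalisation, made, per their methods and processing notes, with 12 cycles of PCR, STAR 2.7.9a on GRCm38, featureCounts 2.0.1 and UMI-tools 1.1.1. The settings for strand and for reads that map to several places are not given in the sources used here. Libraries held from 726378 to 931168 counts, and 1407 genes were at 0 in all of them.

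The members and the gene lists were chosen with earlier results of these data known. All 20654 genes entered 1 fit in R 4.3.3 with edgeR 4.0.16 (TMM, filter with a minimum count of 10, robust quasi-likelihood test, Benjamini-Hochberg adjustment, threshold 0.05), from which the rows of the regulators and lists were read. The SE was computed from the log2 fold change and the F statistic. Log2 CPM used a prior count of 2. Alternatives were DESeq2 1.42.0, limma-voom (limma 3.58.1), DESeq2 size factors, total counts only, cyclic loess offsets (3 iterations), other filters, the replicate number as a block, and each library left out in turn. The calculations were tested on simulated data. Libraries of 1 group differed by more than sampling noise (chi-square per degree of freedom from 1.64 to 2.61).

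The genes named are the 10 regulators, *Piezo1*, in each list those called and the 3 with the largest and smallest log2 fold change, the most abundant marker of each cell type, all MuSC markers, and the 5 genes most like the most variable regulator. Markers and genes named outside this rule (*Rbl1*, *Rbl2*, *Gdf15*, *Acta1*, *Chrng*, *Mcm5*, *Prim1*, *Tk1*, *Aurkb*, *Ly6a*, *Dcn*, *Col3a1*, *Cd34*, *Pdgfra*, *Cspg4*, *Rgs5*, *Pdgfrb*, *Myh11*, *Mkx* and the genes overlapping a regulator) were chosen after their values were seen. Gene positions are from GENCODE vM21 on GRCm38 and promoter windows from RefSeq on GRCm38.p6. The values of some single genes that this rule names are not reported here. A comparison of protein sequences was planned and not made.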

Additional observations from a re-analysis of the deposited data

How the results depend on the processing

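None of the 9 tested regulators was called under any alternative, except *Ccnd2* without wild type replicate 3, so that leaving out 1 library gave from 0 to 1 calls. The number of all genes called, 67, moved to 27 with DESeq2, 38 after cyclic loess normalisation and 129 with no filter, and ran from 6, without *Piezo1* cKO replicate 2, to 174, without *Piezo1* cKO replicate 1. It was 105 without wild type replicate 1, 131 without wild type replicate 3 and 29 without *Piezo1* cKO replicate 3. DESeq2 called 12 genes higher and 15 lower, and scaling by total counts only 49 higher and 18 lower, against 40 and 27. The log2 fold change turned for *Cdkn1a*, to 0.05 after cyclic loess, for *Cdkn1c*, which ran from -0.25 to 0.49 with 1 library left out, and for *Cdk6*, which ran from -0.11 to 0.25. Of the 125 values recomputed for the regulators singly, 120 kept direction and call. This number includes the DESeq2 values of *Cdkn1c* and *Rb1*, which kept direction but had no adjusted p. The cause of these changes was not tested. The replicate numbers did not pair the libraries (correlations of same-numbered libraries -0.14, -0.20 and 0.01), and with the number as a block 46 genes and 0 regulators were called. With the block, *Hells* (edgeR adjusted p = 0.0582) and *Cenpf* (0.101) were not called, and *Prc1* (0.0310) was, as was *Acta1* of the myocyte list (0.00418). The differences in D cyclin shares kept their direction with every library left out, from 4.95 to 5.94 percentage points for *Ccnd3*, from 2.81 to 9.04 for *Ccnd2* and from -14.4 to -7.77 for *Ccnd1*. For *Ccnd3* and *Ccnd1*, whose groups did not overlap, the direction could not have changed. The shares of a library also add up to the whole, so they are not separate results. *Cdkn1b*, *Cdkn1c* and *Piezo1*, with at most 19 counts in a library, are limited by depth.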
